A study of Mus musculus with 24 samples.

Results

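The histone genes of the mouse were followed in single metaphase II (MII) oocytes and in single 1-cell embryos during the first hours after fertilization by injection of a sperm. The genes were taken by symbol from the platform annotation: the H1f, H2ac, H2bc, H3c and H4c series and the H2az and H2ax variants, with the oocyte linker histone H1f8 left out. This gave 38 of the 19532 measured genes, 8 of class H1, 13 of class H2A, 9 of class H2B, 3 of class H3 and 5 of class H4. For the 6 genes with more than 1 probe the brightest stood for the gene.

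Histones are the proteins around which DNA is wound. H2A, H2B, H3 and H4 form the nucleosome core, and H1 binds the linker DNA between cores. Most of these genes are replication-dependent: they lie in clusters, are expressed with DNA synthesis, and their mRNAs commonly end in a stem-loop rather than a poly(A) tail. Replacement variants such as H2A.Z and H3.3 are made from polyadenylated mRNA and can be deposited outside S phase. After fertilization the paternal genome exchanges protamines for histones supplied by the egg, and both pronuclei replicate their DNA before the first cleavage.

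All 24 cells were from B6D2F1 mice, a hybrid strain, and each was measured on its own array. The 0 h group held 3 MII oocytes, which are arrested in the second meiotic division and were not injected. Embryos made by intracytoplasmic sperm injection (ICSI), with sperm from B6D2F1 males 8 to 12 weeks old, were collected after 2 h (3 embryos), 4 h (4), 6 h (3), 8 h (3), 10 h (4) and 12 h (4). ICSI places the sperm inside the egg and bypasses fusion of the gametes. Nothing in the labels gives the age of the oocyte donors or ties cells to a donor or an experiment, and the p-values therefore cover the cell-to-cell spread, which may be partly technical. All samples went through capture of mRNA on oligo-dT beads and whole-transcriptome amplification of 1 cell, and any effect of this capture on mRNAs without a poly(A) tail was not tested.

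Values are log2 intensities with the background of the arrays at 6.82, the most common value. A probe's level is compared across cells and not with that of another probe. The 12 oocyte markers were all over 1 log2 unit above background in at least 1 group. Of the marker lists for other cells, 5 of 9 cumulus genes, 5 of 7 blood genes and 7 of 10 sperm genes were over that level in at least 1 group. The summed log2 levels of the lists in the oocytes and in the embryos were 17.84 to 17.92 and 17.37 to 18.02 for oocyte markers, 12.70 to 12.77 and 12.87 to 13.73 for cumulus, 13.20 to 13.81 and 13.11 to 14.32 for blood, and 12.62 to 13.40 and 13.48 to 14.75 for sperm. The cumulus genes Has2, Tnfaip6, Fshr and Cd44, the blood genes Ptprc and Tyrobp, and the sperm genes Odf1, Smcp and Spata18 stayed near background. Other genes of the same lists were bright in every group, the oocytes included. Group means were 12.47 to 13.37 for Amh (cumulus), 13.28 to 13.99 for Hbb-bt (blood) and 11.81 to 13.43 for Gapdhs (sperm). The lists thus do not settle whether RNA of other cells was present. Some sperm genes were higher in embryos. Prm1, a protamine gene, rose by 1.40 log2 units at 10 h and by 1.09 over all embryo groups (limma adjusted p = 0.0215 and 0.0213). It was already at 11.38 ± 0.12 in the oocytes, which were not injected. Oaz3 rose by 3.86 at 8 h (limma adjusted p = 0.0184), from 7.16 ± 0.21 in the oocytes to 11.02 ± 1.61, and was at 7.32 ± 0.27 at 10 h. Whether any of this RNA came with the sperm was not tested. The median change of the 10 sperm genes was between 0.31 and 0.62 at the 6 times and 0.66 over all embryo groups. The oocyte arrays carried 7580 to 7856 distinct values each and the embryo arrays 5309 to 7531, with median SDs of a gene of 0.28 and 0.50. The part of these differences between oocytes and embryos in the histone results was not tested.

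Of the 38 histone genes, 31 (81.6%) were over 1 log2 unit above background in at least 1 group, against 70.9% of all genes. The other 7 stayed within 1 log2 unit of background in every group, and changes of genes so close to background are understated. All classes held genes above this level: 6 of 8 H1 genes, 11 of 13 H2A genes, 7 of 9 H2B genes, 2 of 3 H3 genes and all 5 H4 genes. The genes lie mainly in the known histone clusters, 27 of them on chromosome 13 and 7 on chromosome 3, and the plot of levels by class shows each gene's mean and its range over the time course.

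**Figure D1:**
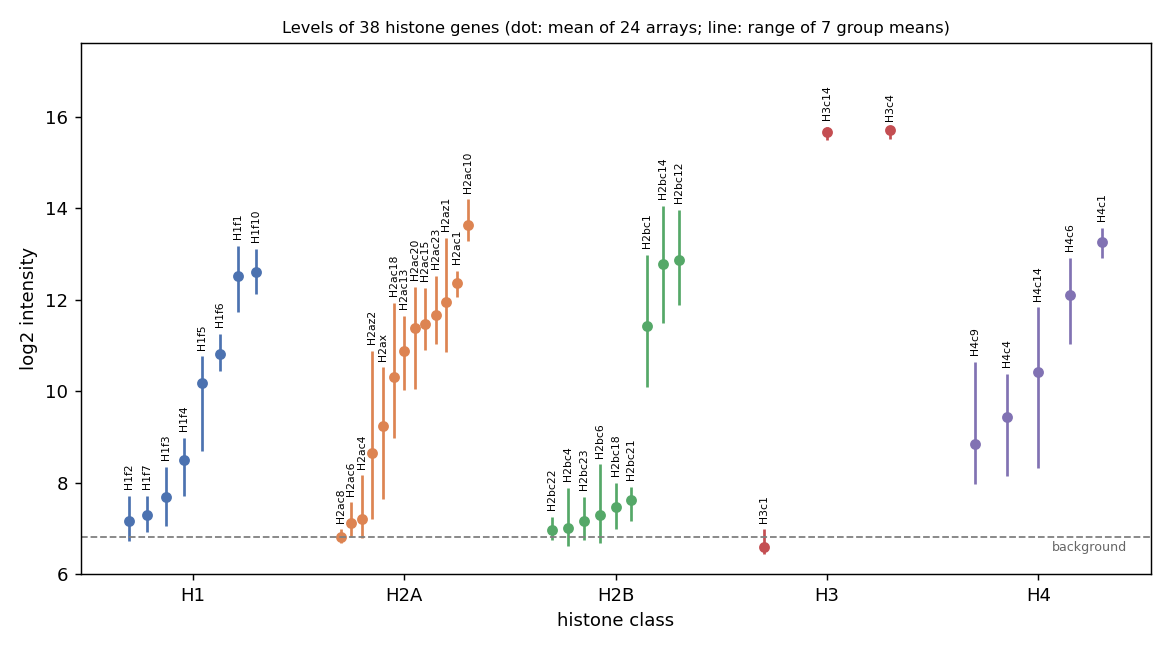
Log2 intensity of the 38 histone genes by class (H1, H2A, H2B, H3, H4). A dot is the mean of 24 arrays, a vertical line joins the lowest and highest of the 7 group means, and the dashed line is the background at 6.82; H3c4 and H3c14 sit close to the top of the scale at 15.86. Heights of different probes are not comparable as abundance.

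The first question is how the embryos of each time differ from the oocytes. All 6 of these comparisons use the same 3 oocytes, so they are not independent. H4c14, which encodes core histone H4, rose at 12 h by 3.50 log2 units (SE 0.83, limma adjusted p = 0.0329), and it was the only 1 of the 38 genes (2.63%) called there, against 1.46% of all genes called in either direction and 0.410% called higher. When all embryo groups were set against the oocytes, H1f5, a replication-dependent linker histone, rose by 1.68 log2 units (SE 0.40, adjusted p = 0.0438), again the only one of the 38, against 0.932% of all genes called and 0.174% called higher. Single calls of this kind are near the background rate of the arrays.

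By limma no histone gene was called at 2, 4, 6, 8 or 10 h against 0 h, where 0.102%, 0.0666%, 0.148%, 0.845% and 0.707% of all genes were called. The smallest adjusted p among the histone genes was 0.154 at 2 h (H2ac18), 0.182 at 4 h (H3c14), 0.279 at 6 h (H2ac20), 0.0605 at 8 h (H1f5) and 0.0685 at 10 h (H1f5). Before adjustment, 16 of the 38 (42.1%) had a p under 0.05 at 2 h, where 9.50% of all genes did. The counts were 8 at 4 h (21.1%, against 9.25%), 9 at 6 h (23.7%, against 8.77%), 6 at 8 h (15.8%, against 13.4%), 9 at 10 h (23.7%, against 11.3%) and 10 at 12 h (26.3%, against 13.5%). The histone genes are not independent of each other, as the correlations between paralogs given further on show.

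Fitted changes against 0 h were mostly positive at every time, though nearly all missed the test. At 2 h, 28 of the 38 changes were positive (73.7%, against 51.8% of all genes), with a median of 0.40 log2 units against 0.02 for all genes. At 12 h, 33 were positive (86.8%, against 57.2%), with a median of 0.54 against 0.08. In the times between, the medians were 0.36, 0.45, 0.26 and 0.37 at 4, 6, 8 and 10 h, where the medians of all genes lay between 0.04 and 0.06. Among the 25 histone genes whose mean over all arrays was more than 1 log2 unit above background, 21, 20, 20, 23, 22 and 24 changes were positive at 2, 4, 6, 8, 10 and 12 h. Those counts are 80.0% to 96.0%, against 49.3% to 54.2% of the 10629 genes that met the same limit. Between late and early embryos 11 of the 25 were positive (44.0%, against 54.8%).

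Counted without a model, every 2 h embryo lay above every oocyte for 16 of the 38 genes (42.1%), against 8.22% of all genes. The same held for 10 genes at 4 h (26.3%, against 8.54%), 11 at 6 h (28.9%, against 10.5%), 10 at 8 h (26.3%, against 14.2%), 6 at 10 h (15.8%, against 8.31%) and 13 at 12 h (34.2%, against 12.0%). H2az2 was the only histone gene with every embryo below every oocyte at 2, 4 and 10 h, where 9.89%, 5.78% and 7.09% of all genes lay so. H2ax and H2bc6 joined it at 6 h (9.35% of all genes) and H2ac23 at 8 h (10.7%), and none did at 12 h (7.24%). Over all 21 embryos together, H1f5 and H4c14 alone lay above the oocytes throughout (5.26%, against 0.543%), and no histone gene lay below (0.579%).

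The second question is whether late embryos differ from early ones, a comparison that leaves out the oocytes. With the 10 and 12 h embryos set against the 2 and 4 h embryos, no histone gene was called by limma (0.763% of all genes were), and 6 of 38 had an unadjusted p under 0.05 (15.8%, against 12.4%). Of the 38 changes, 18 were positive (47.4%, against 53.0%), with a median of -0.04 log2 units against 0.03 for all genes. The smallest adjusted p was 0.212, for H4c9. A test of any difference over the 7 times also called no histone gene (1.20% of all genes), 11 having an unadjusted p under 0.05 (28.9%, against 15.1%), and its smallest adjusted p was 0.135, again for H4c9. The plot of changes by comparison shows the histone median above that of all genes at each time against 0 h and below it between late and early embryos.

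**Figure D2:**
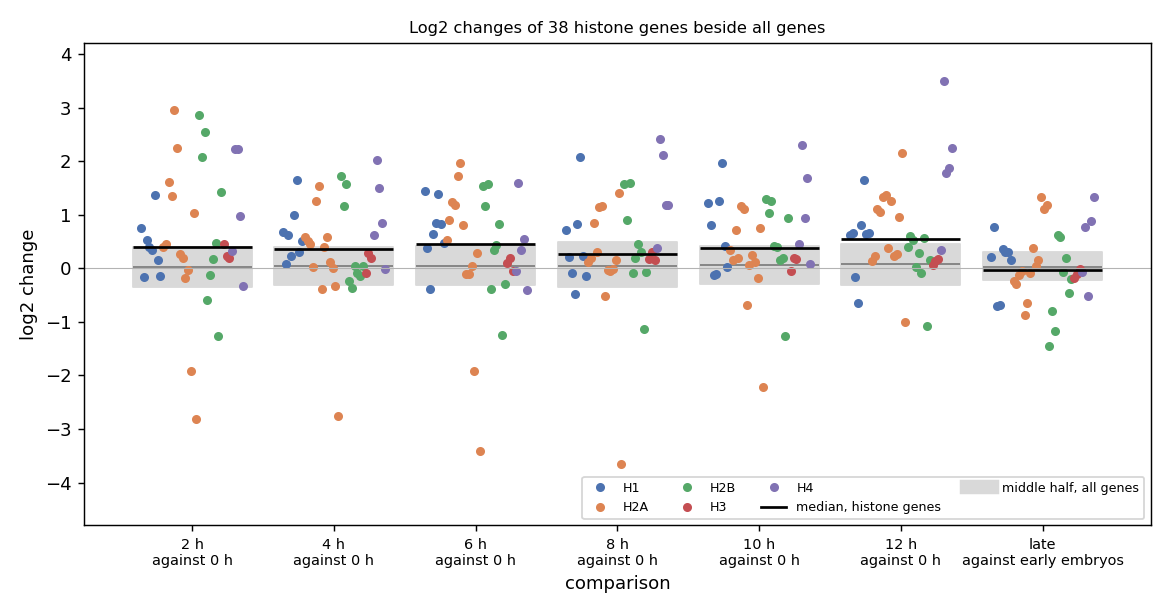
Log2 change of each of the 38 histone genes in 7 comparisons, coloured by class (dots), with the median of the histone genes (black line) and the median and quartile range of all 19532 genes (grey). The histone medians lie between 0.26 and 0.54 in the comparisons with 0 h and at -0.04 between late and early embryos.

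The linker histone (H1) genes as a class had median changes of 0.38, 0.57, 0.73, 0.22, 0.61 and 0.65 log2 units at 2 to 12 h. H1f5 was at 9.15, 8.42 and 8.50 in the oocytes, at 9.39, 10.30 and 10.46 at 2 h, and at 9.92, 10.57, 10.02 and 10.83 at 4 h. It was at 10.28, 9.93 and 10.01 at 6 h, 11.51, 10.69 and 10.09 at 8 h, 10.03, 10.34, 10.86 and 11.37 at 10 h, and 9.80, 10.24, 11.15 and 10.13 at 12 h. The oocytes were low and all 21 embryos were above them. The mean was 8.69 ± 0.40 (SD, n = 3) in the oocytes and 10.05 ± 0.58 (n = 3) at 2 h, a difference of 1.36 that missed the threshold (SE 0.53, adjusted p = 0.396), and the means of the 6 embryo groups lay between 10.05 and 10.76. The call was lost when any 1 of the 3 oocytes was left out (adjusted p = 0.119, 0.275 and 0.253 without oocytes a, c and d).

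H1f10, the replacement linker histone H1.10, was at 12.30 ± 0.53 in the oocytes and 12.97 ± 0.18 (n = 4) at 12 h, a change of 0.66 (SE 0.41, adjusted p = 0.509), and 7 of 21 embryos lay above every oocyte. Its late-minus-early change was 0.78 (limma adjusted p = 0.228). A second H1f10 probe gave 0.73 at 12 h. Over all embryo groups it gave 1.10, against 0.32 for the probe used, and the 2 probes correlated at r = 0.53. H1f1, another replication-dependent linker histone, had group means from 11.73 ± 0.67 at 0 h to 13.18 ± 0.17 at 6 h and 12.35 ± 0.90 at 12 h, and its groups overlapped except at 6 h. Of the testis-specific linker histones, H1f6 (H1t) had group means between 10.44 and 11.26, and H1f7 (H1T2) lay between 6.93 and 7.72, close to background. Neither passed the test at any time.

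Core promoter letters of H1f5 are shown because it is the linker histone gene that was called. In the RefSeq promoter table (GRCm38.p6), 33 of the 38 genes had a window of 250 bases before to 50 after the start site. Both strands were searched for 4 motifs, the octamer ATTTGCAT, the TATA element TATAAA, the element CCAAT and the H1 box AAACACA, and capitals mark a match on either strand (no matches overlap in the windows shown). The H1f5 window is chr13:21780576-21780875 on the minus strand, printed 5′ to 3′ along the gene.
H1f5: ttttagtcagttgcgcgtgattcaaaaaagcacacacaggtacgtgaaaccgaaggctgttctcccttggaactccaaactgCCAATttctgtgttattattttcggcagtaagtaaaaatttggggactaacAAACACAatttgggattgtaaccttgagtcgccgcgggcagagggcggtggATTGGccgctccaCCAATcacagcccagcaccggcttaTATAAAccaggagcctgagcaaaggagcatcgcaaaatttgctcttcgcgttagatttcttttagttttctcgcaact
It holds 1 TATAAA 28 bases before the start site, 3 CCAAT matches and 1 H1 box, an element known from H1 promoters. The H1 box occurred in 5 of 8 H1 windows and in 9 of 33 histone windows (27.3%), against 7.18% of 32851 promoters. A match is a description of letters and not a site of binding.

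Histone H4 is encoded by many gene copies whose proteins are nearly identical. The H4 class had median changes of 0.97, 0.84, 0.34, 1.19, 0.93 and 1.88 log2 units at 2 to 12 h, and all 5 were positive at 12 h. H4c14 was at 8.55, 8.01 and 8.42 in the oocytes and at 12.74, 10.17, 11.68 and 12.72 at 12 h. Between these times it was at 9.86, 11.59 and 10.18 at 2 h, 8.71, 10.91, 8.96 and 12.83 at 4 h, 9.37, 11.10 and 9.30 at 6 h, 10.52, 11.00 and 10.69 at 8 h, and 10.14, 9.89, 10.78 and 11.67 at 10 h. The oocytes were the lowest 3 of the 24 cells, 2 embryos of 4 h were close above them, and 1 embryo at 4 h and 2 at 12 h were the highest. Group means were 8.33 ± 0.28 (n = 3) at 0 h, 10.54 ± 0.92 at 2 h and 11.83 ± 1.21 (n = 4) at 12 h. The 12 h call was lost without oocyte a, c or d (adjusted p = 0.107, 0.143 and 0.111) and without 12 h embryo a, c or d (0.0749, 0.0647 and 0.088). It was also lost when the other 5 groups were left out of the fit (0.0749).

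The plot of single cells for H4c14 and H1f5 sets both genes side by side. H4c14 spread widely among embryos of 1 time, with an SD of 1.92 at 4 h against 0.28 in the oocytes, while H1f5 had SDs of 0.19 to 0.71 in the embryo groups.

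**Figure D3:**
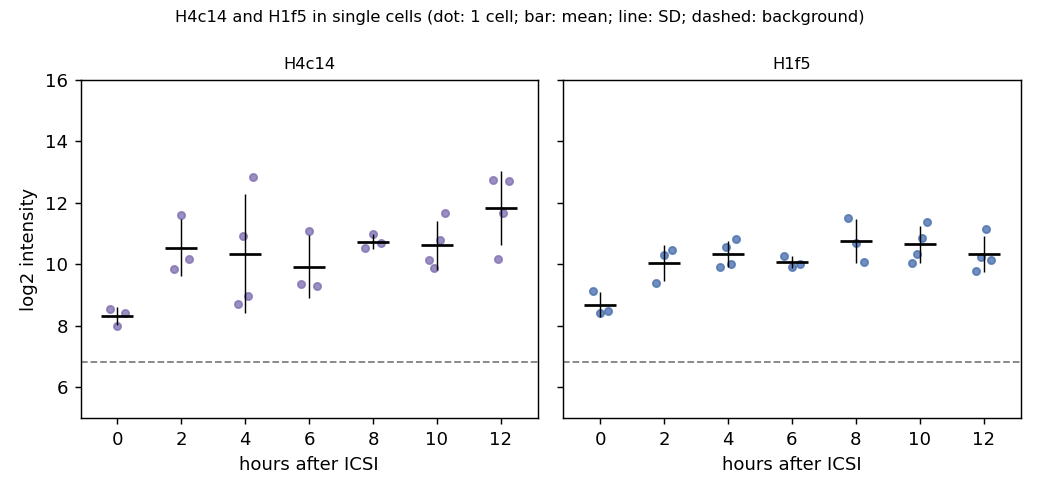
Log2 intensity of H4c14 and H1f5 in each cell against hours after ICSI (dot: 1 cell; bar: mean; vertical line: SD; dashed line: background at 6.82). For both genes all 21 embryos lie above the 3 oocytes, whose highest values are 8.55 for H4c14 and 9.15 for H1f5.

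H4c6 was at 10.86, 10.94 and 11.29 in the oocytes and 13.13, 11.71, 13.54 and 13.27 at 12 h, without overlap, and its change of 1.88 (SE 0.54) missed the threshold (adjusted p = 0.0839). H4c9 was at 7.87, 8.15 and 9.16 in the oocytes and 9.55, 9.40, 11.33 and 12.26 at 12 h, a change of 2.24 (SE 0.67, adjusted p = 0.105). The 2 to 6 h means of H4c9 lay between 7.98 and 8.38, and the later means were 9.58 ± 1.04 at 8 h (1.19, SE 0.72, adjusted p = 0.506), 8.47 ± 0.36 at 10 h and 10.63 ± 1.39 at 12 h. H4c4 had a mean of 8.15 ± 0.81 in the oocytes and 9.92 ± 1.68 at 12 h (1.77, SE 1.0, adjusted p = 0.461), and its second probe gave 2.46 in the same direction. H4c1 stayed between 12.90 and 13.57 in all groups (0.35 at 12 h, SE 0.35, adjusted p = 0.75).

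Across the 24 arrays, H4c14 correlated with H4c6 at r = 0.81 and with H4c4 at 0.73, and the 10 pairs of H4 genes had a median r of 0.47. The arrays are shared by both genes of a pair, and paralogs with near-identical sequence can bind each other's probes, which was not tested because probe sequences were not used here. The 5 of 3182 genes with wide changes whose 7 group means followed H4c9 most closely were F730043M19Rik (r = 0.992), Pyroxd1 (0.989), Smim24 (0.984), B230206H07Rik (0.971) and Dus3l (0.968). H4c9 was taken for its smallest F-test p and was not called. The best of 3182 correlations over 7 means are high in part by selection, and shared regulation was not tested.

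Of the 9 H2B genes, H2bc1, H2bc12 and H2bc14 were far above background, and the means of the other 6 over all arrays were within 1 log2 unit of it. H2bc1 is the testis-enriched H2B known as TH2B, which is also found in oocytes, and H2bc12 and H2bc14 are replication-dependent copies. H2bc14 was at 11.81, 11.67 and 11.00 in the oocytes and at 13.10, 14.61 and 14.43 at 2 h. It was at 13.54, 13.03, 13.18 and 12.53 at 4 h, 13.00, 12.57 and 13.62 at 6 h, and 11.54, 14.03 and 13.72 at 8 h. At 10 h it was at 12.14, 10.56, 14.12 and 14.14, and at 12 h at 10.90, 12.28, 12.42 and 12.49. All 2, 4 and 6 h embryos were above the oocytes, whereas 8 h embryo a lay within their range and 10 h embryo b and 12 h embryo a lay below it.

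The 2 h changes were 2.55 for H2bc14 (SE 0.76, adjusted p = 0.252), 2.87 for H2bc1 (adjusted p = 0.277) and 2.07 for H2bc12 (adjusted p = 0.365), and none passed the threshold. At 12 h they were 0.53, 0.39 and 0.61 (adjusted p = 0.835, 0.914 and 0.794). Late against early embryos, the changes were -1.17 for H2bc14, -1.46 for H2bc1 and -0.79 for H2bc12 (adjusted p = 0.315, 0.29 and 0.531). For each of the 3 genes, 18 of 21 embryos were above every oocyte.

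The 3 genes went up and down together from cell to cell, as the plot of H2B genes by array shows. Their pairwise r over the 24 arrays was 0.94 to 0.99, against a median of 0.14 over 231 pairs of histone genes of different classes. Both probes of H2bc12 correlated at 0.96. With the group means removed the median of the 3 pairs was 0.97, so the likeness was also present among cells of the same time. Whether the probes measured separate mRNAs was not tested. H2bc4, near background in most cells, was at 7.80, 9.24 and 6.61 in the oocytes and 6.70, 7.35, 6.44 and 6.73 at 12 h (-1.08, SE 0.43, adjusted p = 0.249).

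**Figure D4:**
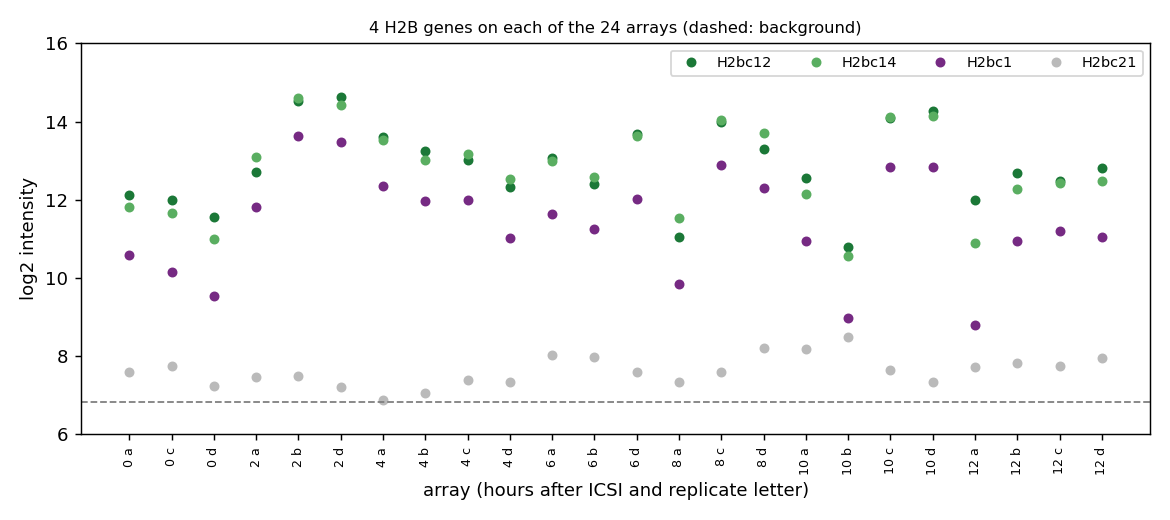
Log2 intensity of H2bc12, H2bc14, H2bc1 and H2bc21 on each of the 24 arrays, ordered by hours after ICSI and replicate letter, with the background at 6.82 dashed. H2bc12, H2bc14 and H2bc1 share their high and low cells, with the lowest values in 1 embryo each at 8, 10 and 12 h and in the oocytes, and H2bc21 stays close to background.

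The promoter windows of the 3 co-varying H2B genes are shown because their values moved together. They come from the same RefSeq table (GRCm38.p6), H2bc1 at chr13:23934107-23934406 on the minus strand, H2bc12 at chr13:22035571-22035870 and H2bc14 at chr13:21721794-21722093 on the plus strand, with the same 4 motifs in capitals.
H2bc1: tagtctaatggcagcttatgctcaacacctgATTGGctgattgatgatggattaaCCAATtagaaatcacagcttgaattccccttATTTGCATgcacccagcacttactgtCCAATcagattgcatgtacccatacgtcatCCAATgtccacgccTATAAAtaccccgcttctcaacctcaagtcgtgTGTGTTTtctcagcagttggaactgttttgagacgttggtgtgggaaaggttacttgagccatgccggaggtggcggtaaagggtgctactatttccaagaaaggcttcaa
H2bc12: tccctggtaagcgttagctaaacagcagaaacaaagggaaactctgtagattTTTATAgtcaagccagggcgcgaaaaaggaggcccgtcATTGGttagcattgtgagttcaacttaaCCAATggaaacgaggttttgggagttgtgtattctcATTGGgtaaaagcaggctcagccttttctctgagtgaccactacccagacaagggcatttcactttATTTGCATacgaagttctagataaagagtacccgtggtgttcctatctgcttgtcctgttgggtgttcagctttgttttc
H2bc14: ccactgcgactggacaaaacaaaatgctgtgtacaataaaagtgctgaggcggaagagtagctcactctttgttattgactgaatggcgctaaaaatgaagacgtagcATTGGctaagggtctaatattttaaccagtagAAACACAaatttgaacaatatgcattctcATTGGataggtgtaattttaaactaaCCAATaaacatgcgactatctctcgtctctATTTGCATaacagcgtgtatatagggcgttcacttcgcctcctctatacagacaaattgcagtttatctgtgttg
All 3 hold the octamer ATTTGCAT (reverse complement ATGCAAAT), the known binding sequence of the POU factor Oct-1. It lies 164 bases before the annotated start site in H2bc1, 30 in H2bc12 and 25 in H2bc14. In the H2bc1 window the bases after the start site open with atg, a start codon. Its 164 may thus be counted from the coding sequence and is not comparable with the other distances. The octamer occurred in 4 of 7 H2B windows, in 5 of 12 H2A windows and in no window of the other classes, or in 9 of 33 histone windows (27.3%), against 1.74% of all promoters. The remaining H2B window was that of H2bc18, with a mean of 7.48, near background. Of the H2A genes with it, H2ac1 (12.36) and H2ac20 (11.38) were bright, and H2ac4 (7.20), H2ac6 (7.12) and H2ac8 (6.81) were near background. The H2B windows without the octamer were those of H2bc6 (7.29), H2bc22 (6.97) and H2bc23 (7.16), also near background. The part of the octamer in the likeness of the 3 H2B genes was not tested. CCAAT was present in 29 of 33 (87.9%), against 37.4% of all promoters, and TATAAA in 19 of 33 (57.6%), against 13.6%. These shares describe histone promoters as a family, and windows of divergent neighbours such as H2bc1 and H2ac1 overlap. The octamer and the H1 box of H2bc1 are the same letters as those of H2ac1, read on the other strand. The counts of windows, that of the H1 box above included, repeat such shared letters. The expression of that neighbouring pair correlated at r = 0.34 over the 24 arrays.

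The 13 H2A genes had median changes of 0.40, 0.40, 0.53, 0.16, 0.19 and 0.96 log2 units at 2 to 12 h. H2ac10 had group means between 13.29 and 14.19 and a 12 h change of 0.23 (SE 0.30, limma adjusted p = 0.826). Its second probe gave 0.02 at 12 h and correlated with the probe used at r = 0.28. H2ac1, the testis-enriched TH2A, lay between 12.06 and 12.63 (0.14 at 12 h, SE 0.30, limma adjusted p = 0.912). H2ac18 and H2ac20 are described because their values stood out once seen. H2ac18 was at 8.61, 9.04 and 9.25 in the oocytes and 10.72, 12.30 and 12.77 at 2 h (2.96, SE 0.76, adjusted p = 0.154). H2ac20 was at 10.27, 10.26 and 9.60 in the oocytes and 11.51, 12.88 and 12.44 at 2 h (2.24, SE 0.60, adjusted p = 0.177). Neither gene overlapped the oocytes at 2, 4, 6 or 12 h.

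Their 12 h means, 10.30 ± 0.85 and 11.41 ± 0.53, were lower than at 2 h and above the oocytes, and 19 and 20 of 21 embryos lay above every oocyte. The 6 bright H2ac genes other than H2ac1 formed 15 pairs with a median r of 0.64 over the 24 arrays, the highest being H2ac13 with H2ac15 at 0.93. H2ac1 was most like H2ac10 (r = 0.87) and among these 6 least like H2ac13 (0.11). Over all 45 pairs of bright H2A genes, H2ac1 and the replacement variants included, the median r was 0.16 (-0.43 to 0.93). Pairs of histone genes of different classes had a median of 0.14.

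The H2A replacement variants have their own roles: H2A.Z, encoded by H2az1 and H2az2, marks promoters, and H2A.X, encoded by H2ax, is phosphorylated at DNA breaks. The fitted 12 h changes of the pair encoding H2A.Z had opposite signs, and the difference between them was not tested. H2az2 was at 11.43, 10.54 and 10.64 in the oocytes, 7.94, 9.17 and 7.01 at 2 h, 7.22, 6.79, 10.13 and 8.35 at 4 h, and 7.48, 7.65 and 7.26 at 6 h. It was at 7.56, 7.12 and 6.94 at 8 h, 9.78, 10.32, 7.29 and 7.22 at 10 h, and 7.55, 12.11, 8.53 and 11.31 at 12 h. The oocytes were high, embryos to 8 h were mostly near background, and the 10 and 12 h embryos were split between high and low cells. In all, 19 of 21 embryos were below every oocyte.

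The largest H2az2 change was at 8 h, -3.66 (SE 1.05, adjusted p = 0.0974), and over all embryo groups it was -2.64 (SE 0.80, adjusted p = 0.14), neither past the threshold. At 12 h it was -1.0 (SE 0.98, adjusted p = 0.741). H2az1 was at 11.07, 11.67 and 10.80 in the oocytes and 13.56, 13.66, 13.86 and 12.27 at 12 h, without overlap, a change of 2.16 (SE 0.94, adjusted p = 0.301). Its second probe, near background, gave 0.24. At 4 h and 10 h H2az1 varied from 9.16 to 13.30 and from 9.69 to 14.06 between embryos.

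H2ax was at 9.36, 9.87 and 9.44 in the oocytes. It was at 7.86, 7.18 and 7.89 at 6 h, below the oocytes, and at 10.37, 9.09, 12.57 and 10.05 at 12 h, overlapping them (0.96, SE 1.10, adjusted p = 0.792). At 2, 8 and 10 h some embryos were within 1 log2 unit of background and the others lay between 9.92 and 11.48. The late-minus-early changes were 1.34 for H2ax (adjusted p = 0.483) and 1.18 for H2az2 (adjusted p = 0.497). The plot of the H2A variants shows this cell-to-cell spread.

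**Figure D5:**
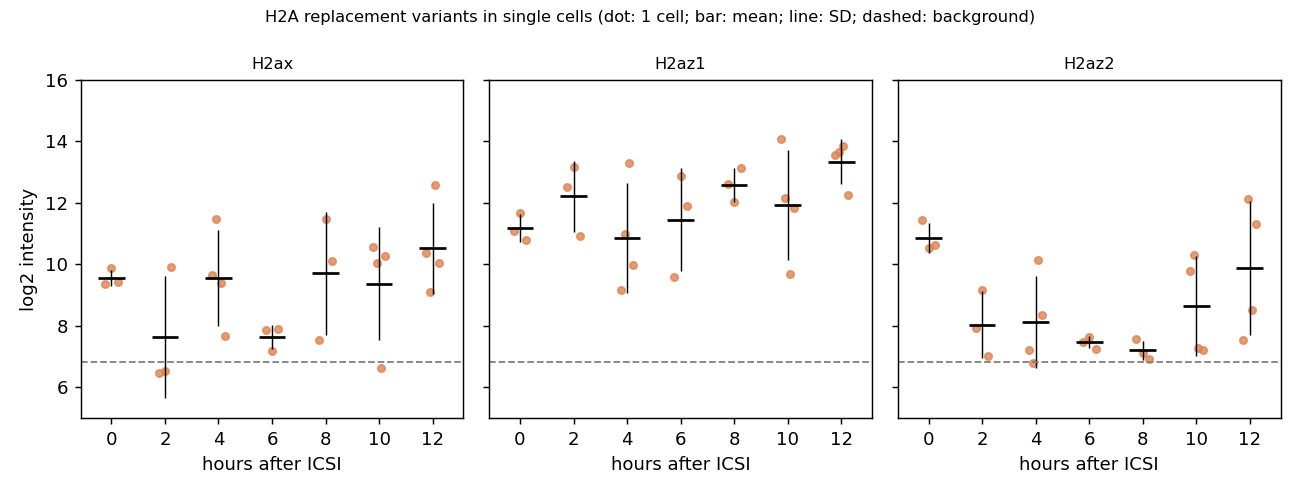
Log2 intensity of H2ax, H2az1 and H2az2 in each cell against hours after ICSI (dot: 1 cell; bar: mean; vertical line: SD; dashed line: background at 6.82). For H2az2 the oocytes lie at 10.54 to 11.43 and the 8 h embryos at 6.94 to 7.56, and the 12 h embryos range from 7.55 to 12.11.

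H3c4 and H3c14, replication-dependent copies of histone H3, were near the upper end of the scale in every cell. H3c14 was at 15.54, 15.47 and 15.44 in the oocytes and 15.66, 15.61, 15.61 and 15.56 at 12 h (0.13, SE 0.08, adjusted p = 0.504), with group means of 15.61 to 15.78 in the embryos. H3c4 was at 15.62, 15.64 and 15.45 in the oocytes and 15.75, 15.75, 15.72 and 15.74 at 12 h (0.17, SE 0.07, adjusted p = 0.283). For H3c14, 20 of 21 embryos lay above every oocyte and 0 below, and for H3c4, 17 lay above and 1 below. The H3c14 change at 4 h was 0.29 (SE 0.08, limma adjusted p = 0.182). H3c14 was called only with array weights, at 4 h, at 8 h and over all embryo groups. The highest log2 intensity on these arrays was 15.86, so little room was left above these probes. How far saturation limited their changes was not tested. H3c1 stayed near background.

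Of 11 measured histone genes whose symbols fall outside the series above, H2bl1, an H2B variant gene, was the only one called in any comparison (0.845% of all genes at 8 h). It rose at 8 h from 6.87 ± 0.02 (n = 3) to 8.11 ± 0.26 (n = 3), by 1.25 log2 units (SE 0.19, adjusted p = 0.0111), and was at 6.91 at 10 and 12 h. H3f3a, which encodes the replacement variant H3.3, was at 12.82 ± 0.08 in the oocytes and 13.71 ± 0.19 at 12 h (0.89, SE 0.25, adjusted p = 0.0826). H3f3b, the second H3.3 gene, was at 15.61 ± 0.10 and 15.61 ± 0.11, also near the top of the scale.

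Among 37 measured genes of histone gene regulation, histone mRNA processing and decay, Nfya was the only one called in any comparison, where 0.707% of all genes were called at 10 h, 1.46% at 12 h and 0.763% between late and early embryos. It encodes a subunit of NF-Y, the factor that binds CCAAT. Nfya fell from 14.88 ± 0.06 (n = 3) in the oocytes to 13.67 ± 0.60 (n = 4) at 10 h and 13.60 ± 0.22 (n = 4) at 12 h, changes of -1.21 (SE 0.27, adjusted p = 0.0419) and -1.27 (SE 0.27, adjusted p = 0.0184). It was also lower in late than in early embryos (-0.97, SE 0.19, adjusted p = 0.012). Its calls against 0 h were lost without oocyte a, c or d (adjusted p = 0.125 to 0.167 at 10 h and 0.0673 to 0.0884 at 12 h), and the 10 h call also without 10 h embryo a, b or d (0.0742 to 0.122). With the probes of a gene averaged, the 10 h change was -0.73 (adjusted p = 0.199). Slbp, which encodes the protein that binds the stem-loop of histone mRNAs, was at 14.99 ± 0.02 in the oocytes and 14.80 ± 0.34 at 12 h (-0.19, SE 0.24, adjusted p = 0.814).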

How the data were processed

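The deposited values, 1 per probe and array for 41174 probes and 24 arrays, are scores that the authors normalized, per the submitters' processing notes with limma (no version given). The 24 columns had near-identical distributions (medians 1.16 to 1.18, range 0 to 4.57). Per the labels' protocols the sample carried digoxigenin and a reference carried biotin, but the label field names biotin for the sample. No source used here says which of them the values hold, or gives the slide, scan, background correction or probe build, and no batch could be tested.

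The planned tests assumed log2 values, so the scores were turned to log2 intensity. The spacing of 100 tied midpoints fitted a doubled natural logarithm of intensity over 0.2246 (largest residual of the curvature 0.0033 against fitted values of 1.11 to 2.68). Intensity, 51.5 to 59468, is thereby known apart from an unknown offset and multiplier. The log2 values, the background of 6.82 and the log2 changes given here take the fitted form with no added offset. Another offset would alter the changes, most of all those of dim genes. With the background subtracted, the 12 h change of H4c14 was 4.09 instead of 3.5. No background was subtracted, and the number of arrays limits the precision.

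Probes with 1 gene symbol (32664, with 45 naming several left out) were reduced to 19532 genes by the highest mean deposited score, and 8511 genes had more than 1 probe. All 24 arrays entered 1 fit of 7 group means with limma 3.58.1 in R 4.3.3 (lmFit, then eBayes with a mean-variance trend). There were 9 two-sided comparisons: 6 times against 0 h, late (10 and 12 h) against early (2 and 4 h), all embryo groups against 0 h, and an F-test over the 7 times. A gene was called at a Benjamini-Hochberg adjusted p under 0.05 over all genes. The steps were tested on simulated data. Named are called genes, the 2 brightest per class, replacement and testis variants, the 5 largest changes each way at 12 h among bright genes, called genes of the 2 lists of related genes with Slbp, H3f3a and H3f3b, and the 5 genes most like the one with the smallest F-test p. The members and lists were chosen with earlier results of these data known. Alternatives changed the scale, background, centring, filter on dim genes, probe choice, variance trend, array weights, samples in the fit, replicate block and each replicate in turn.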

Additional observations from a re-analysis of the deposited data

Results flagged for a closer look

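Of the 63 sets of 4 values that 21 named histone genes gave in the 3 groups of 4 embryos, 5 held a cell far from the other 3, where chance flags about 1 in 20. H1f1 was at 11.01 in 12 h embryo c, against 12.66 to 12.97 in the others. H2ax was at 6.63, below the background level, in 10 h embryo c, against 10.04 to 10.55. In 12 h embryo a, H2bc1 was at 8.79 against 10.94 to 11.19, and H2bc14 was at 10.90 against 12.28 to 12.49, so this embryo stood below the rest for a pair of genes that correlate across all arrays. H3c4 was at 15.74 in 4 h embryo d against 15.77 in each of the others, a difference near the top of the scale.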

How the results depend on the processing

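H4c14, H1f5, H2bl1 and Nfya kept the direction of their called changes under the alternatives run for each. At 2 h, at 6 h and between late and early embryos, the count of called histone genes was 0 in every alternative run. At 4 h and for any difference over the 7 times it was 0 except with array weights (1 each). At 8 and 10 h it was 1 with the background subtracted, with probes of a gene averaged and with no variance trend, and 3 with array weights. At 12 h (1 gene in the report) it was 2 with the background subtracted and with no variance trend, 4 with array weights, and 0 when the other groups were left out of the fit. Leaving out 1 replicate gave 0 to 2 genes at 12 h and 0 to 1 for all embryo groups against 0 h. For all embryo groups it was 8 with array weights and 0 without the 4 arrays with the fewest distinct values, an alternative chosen after seeing the data. Array weights also raised the share of all genes called, to 0.788% in the 4 h comparison, 3.01% in that of 8 h, 4.60% in that of 10 h, 5.01% in that of 12 h, 6.00% for all embryo groups and 3.09% over the 7 times. The cause of these shifts was not tested.

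With the replicate letter as a replicate block, 2 genes were called at 12 h (H4c14, adjusted p = 0.0499, and H4c9, 0.046) and 0 for all embryo groups (H1f5, adjusted p = 0.0833). The labels do not say what the letters mark. Deviations of same-lettered cells from their group means correlated at -0.13 to 0.18 (62 pairs, median 0.01). Those of other cells correlated at -0.24 to 0.19 (184 pairs, median -0.01). Such correlations over all genes cannot show whether same-lettered cells shared a donor or a day.

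H4c14 at 12 h had adjusted p-values of 0.00463 to 0.143 over 17 alternatives and lost its call in 7. H1f5 over all embryo groups ranged from 0.000993 to 0.275 over 33 and lost its call in 19: in all 3 that left out an oocyte (0.119 to 0.275), in the block, without the 4 arrays with few distinct values (0.0589), and in 14 that left out 1 embryo (0.0508 to 0.0634), namely 2 h b and d, 4 h b, c and d, 6 h a, b and d, 8 h a and c, 10 h b and c, and 12 h b and d. The filter on dim genes left out H2bl1, so this gene has no result under that alternative. H2bl1 at 8 h (adjusted p = 9.09e-05 to 0.105 over 15) lost its call when the other groups were left out of the fit. So did Nfya at 10 h (0.131) and between late and early embryos (0.0563). Nfya at 10 h lost it in 10 of 17, among them no variance trend (0.0545) and the replicate block (0.0656), and at 12 h in 3 of 17. Without oocyte d, H2bc4 was called instead (-1.66, adjusted p = 0.0379), and without 12 h embryo b, H4c6 was called beside H4c14 (2.28, adjusted p = 0.0357). Changes near the background of 6.82 are understated, and probes near 15.86 had little room to rise. With each array centred on its brighter 60% of genes, 27 to 33 of the 38 changes against 0 h were positive, with medians of 0.29 to 0.56.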

Other observations

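A pair of probes that name both H2ac18 and H2ac19 were left out of the gene values. Their group means lay between 6.20 and 7.03 and between 6.67 and 7.07 log2 units, near background, while the probe that names H2ac18 alone had group means of 8.97 to 11.93. The neighbouring divergent genes H2ac23 and H2bc23 correlated at r = 0.42 over the 24 arrays and H4c6 and H1f3 at -0.25. The arrays are shared by both genes of a pair, and H2bc23 (mean 7.16) and H1f3 (mean 7.68) were near background.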
